A study of Mus musculus with 2 samples.

Results

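Islet α cells were described in single-cell RNA profiles of 2 mouse libraries. The α cells were selected on measured transcripts, that is, on shares of unique molecular identifiers (UMIs, each standing for 1 captured transcript). A barcode was taken as an α cell when it held at least 500 genes and at most 20% mitochondrial UMIs, when Gcg made up at least 2% of its UMIs and exceeded each of Sst, Ppy and Pyy, and when Ins1 and Ins2 together made up under 40%. This gave 284 α cells among 9897 barcodes that passed the gene and mitochondrial filters, of 12846 deposited barcodes. The WT library came from C57/B6 males aged 16 weeks for which the labels name no diet. The HFD library came from C57/B6 males of the same age that had been on a diet with fat as 60% of its calories since an age of 6 weeks, or 10 weeks in all. Each library was made from the pooled islets of 4 mice, which cannot be told apart. Each group is 1 library, no test of the diet was possible, and all intervals below are 95% intervals that cover counting error only.

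Islet α cells secrete glucagon, the hormone that raises blood glucose by acting on the liver. Glucagon is cut from proglucagon, the product of Gcg, by the convertase PC2 (Pcsk2), whereas PC1/3 (Pcsk1) cuts the same precursor to GLP-1 in gut L cells. The identity of α cells is known to depend on transcription factors, and amino acids are a strong stimulus of glucagon release and of α cell growth.

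The selected cells carried the other markers given for α cells. Ttr, which encodes the transport protein transthyretin, was found in all 65 WT and all 219 HFD α cells, and it stood at 17326 CPM (the UMIs of a gene per 1000000 UMIs, summed over the α cells of a library) in WT and 28687 CPM in HFD. In endothelial cells, which do not make transthyretin, 9.71 and 15.7% held a Ttr UMI at median depths of 6811 and 3477 UMIs. Summed β cells of the same libraries held 805 and 1606 CPM of Ttr. Gpx3, a secreted glutathione peroxidase, stood at 948 and 1213 CPM in α cells against 17.3 and 29.3 CPM in β cells. Slc38a5, a glutamine transporter, stood at 53.4 and 123 CPM in α cells against 1.06 and 2.04 CPM in β cells. All 3 markers were thus higher in α than in β cells of both libraries. Against other endocrine cells the 3 markers behaved differently. Ttr stood at 601 and 596 CPM in δ cells and at 2041.5 and 1506 CPM in γ cells. Gpx3 set α cells apart less, at 560 and 492 CPM in δ cells. Thinned to 2000 UMIs per cell, 89.2 (WT) and 83.7% (HFD) of α cells held a Gpx3 UMI. Of δ cells 72.1 and 57.1% did, and of γ cells 62.9 and 49.2%. Slc38a5 stood at 13.3 and 13.0 CPM in δ cells. With each cell thinned to 2000 UMIs, a Slc38a5 UMI was held by 7.69% of WT α cells against 8.197% of WT δ cells. In HFD it was held by 16.7% of α cells against 4.76% of δ cells.

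The bases before the transcription start of Gcg are shown because this gene defines the cells, and because 2 of the factor families described below are known to act through the letters marked. The sequence is the RefSeq promoter window of Gcg without the transcribed bases, 250 bases on the minus strand of GRCm38.p6, chr2:62483654-62483903, given 5′ to 3′ with the last base next to the start. Capitals mark exact matches, on either strand, to TATAAA (the TATA box), TATTTAC (a forkhead motif) and CAGATG (an E-box).

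Gcg: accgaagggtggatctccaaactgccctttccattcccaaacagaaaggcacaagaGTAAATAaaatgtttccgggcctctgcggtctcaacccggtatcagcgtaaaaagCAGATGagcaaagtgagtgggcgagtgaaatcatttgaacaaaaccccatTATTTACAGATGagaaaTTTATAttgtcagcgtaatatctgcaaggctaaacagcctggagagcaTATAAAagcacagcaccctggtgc

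TATAAA began 24 bases before the start, and its reverse complement 72 bases before it. TATTTAC began 89 bases before the start, where it overlapped a CAGATG that began at 83 bases, and its reverse complement began at 194 bases. A further CAGATG began at 139 bases. Of 32851 windows of the same length, 12.4% held TATAAA, 2.73% held TATTTAC and 14.4% held CAGATG. A match of letters is a description and not a bound site.

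In WT, 65 of 2600 kept barcodes were α cells (2.50%, exact interval 1.93 to 3.18%). In HFD, 219 of 7297 were (3.001%, 2.62 to 3.42%), so the counting intervals overlapped. There were 29.2 β cells per α cell in WT and 28.5 in HFD, where β cells were barcodes with at least 40% insulin UMIs and each other islet hormone under 2%. Of the α, δ and γ cells together, α cells made up 39.6% in WT (32.1 to 47.6%) and 52.6% in HFD (47.7 to 57.5%). These shares moved with depth. With at most 15000 UMIs per barcode α cells made up 5.74% of kept barcodes in WT and 4.22% in HFD, and among barcodes with 5000 to 30000 UMIs they made up 4.33 and 1.57%, so the order of the libraries turned.

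The WT α cells were the deeper ones. They held between 2175 and 51232 UMIs with a median of 11823, and a median of 2687 genes. The HFD α cells held between 1404 and 26894 UMIs with a median of 4701, and a median of 1322 genes. The sums over α cells were closer, with 1067981 UMIs in WT and 1286770 UMIs in HFD. Below 5000 UMIs there were 2 WT and 121 HFD α cells. No barcode was an α cell in both libraries, and 9 barcodes in all were shared by them.

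Gcg took between 5.05 and 46.8% of the UMIs of a WT α cell, with a median of 28.6%. In HFD α cells it took between 5.95 and 50.3%, with a median of 29.7%. The libraries therefore overlapped over nearly their whole range. The threshold for Gcg lay in a gap. The lowest shares inside were 5.05% (WT) and 5.95% (HFD), and the highest outside, among barcodes that met the other conditions, were 0.567% and 1.16%. The threshold for insulin did not. The highest insulin share inside was 33.9% in WT and 39.95% in HFD, the lowest outside were 41.4 and 40.2%, and 17 WT and 35 HFD barcodes with Gcg above 2% fell at 40% insulin or more.

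**Figure D1:**
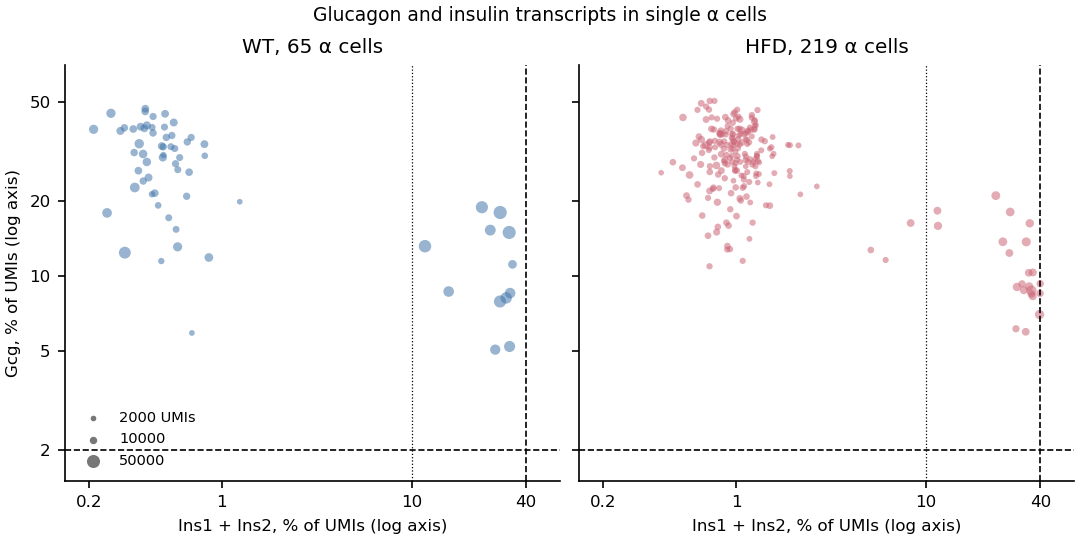
Each point is 1 α cell, with the share of its UMIs from Ins1 and Ins2 on the x axis and from Gcg on the y axis, both in percent on log axes, and with the point's size following its UMIs. Dashed lines are the selection limits of 2% Gcg and 40% insulin, and the dotted line is 10% insulin; most cells sit near the median insulin share of 0.502% (WT) or 1.02% (HFD), and 12 WT and 22 HFD cells sit right of the dotted line.

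Most α cells held little insulin and a small set held much. The median insulin share of an α cell was 0.502% in WT and 1.02% in HFD, next to medians of 0.453 and 1.03% in endothelial cells, which do not make insulin. By contrast 12 of 65 WT α cells (18.5%, 9.92 to 30.03%) and 22 of 219 HFD α cells (10.0%, 6.40 to 14.8%) held at least 10% insulin. Their median depth was 35212 UMIs in WT and 13111 in HFD, against 10443 and 4466 UMIs in the other α cells. They supplied 41.0% of all α cell UMIs in WT and 24.9% in HFD, and 97.6 and 90.4% of the insulin UMIs. High insulin shares were not confined to α cells. The highest share in an endothelial cell was 34.2% in WT and 38.8% in HFD, under a rule that also capped insulin. Whether the α cells with at least 10% insulin are single cells or droplets with 2 cells was not tested. Several results below are also given for the 53 WT and 197 HFD α cells under 10% insulin. Values for α cells with 5000 to 30000 UMIs are given too, but that range matched neither depth nor insulin. It held 53 WT cells with a median of 11280 UMIs and 98 HFD cells with a median of 6968.5 UMIs, of which 3 and 22 held at least 10% insulin, and insulin made up 3.91 and 12.6% of their UMIs.

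Other islet hormones were common second transcripts. Pyy, which encodes peptide YY, reached 2% of the UMIs in 26 of 65 WT α cells (40%, 28.0 to 52.9%) and in 125 of 219 HFD α cells (57.1%, 50.2 to 63.7%). The intervals overlapped narrowly, and the median Pyy share was 1.40% in WT and 2.33% in HFD. Ppy, which encodes pancreatic polypeptide, reached 2% in 15 WT (23.1%) and 50 HFD α cells (22.8%). Sst, which encodes somatostatin, did so in 12 WT (18.5%) and 39 HFD α cells (17.8%).

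Cells with Sst were deeper than the rest, with median depths of 25675 against 11280 UMIs in WT and 6301 against 4307 UMIs in HFD. Cells with Ppy were of like depth, at 11280 against 11923.5 UMIs in WT and 4908 against 4633 UMIs in HFD. Over single cells the shares of Pyy and Ppy followed each other, with Spearman's rho of 0.57 over 65 WT cells and 0.60 over 219 HFD cells, within 1 library each and with depth in common. In endothelial cells no barcode exceeded 0.130% Pyy, Ppy or Sst. The rule caps each of these hormones at the level of Gcg, so these values are a description.

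**Figure D2:**
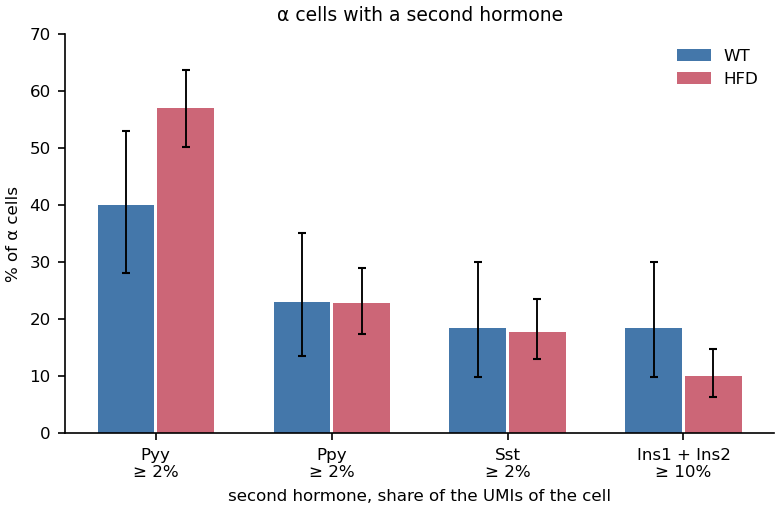
Bars give the percentage of α cells (y axis) in which a second hormone reached the share of UMIs named on the x axis, for 65 WT and 219 HFD α cells, with exact 95% counting intervals. Pyy was the most frequent in both libraries, at 40% in WT and 57.1% in HFD.

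The α programme was read by setting summed α cells against summed β cells in each library. Of 3904 genes with a mean of at least 20 CPM, 628 (16.1%) were at least 2-fold higher in α cells in both libraries and 52 (1.33%) were at least 2-fold lower. These counts hang on the total used. Insulin took 61.1% of β cell UMIs in WT and 57.3% in HFD, which lowers every other β gene in CPM, and the median gene stood 0.71 (WT) and 0.54 (HFD) higher in α cells on the log2 scale. With hormone and mitochondrial genes left out of the totals, 112 genes were higher and 237 lower, and all 25 genes named from the programme stayed past 2-fold. The genes are therefore described by rank and by lists.

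Transcription factors were among the leading genes of the programme. Irx1, an Iroquois homeobox factor, stood at 75.8 CPM (WT) and 58.3 CPM (HFD) in α cells against 0.0789 and 0.0345 CPM in β cells, and Irx2 of the same family at 57.1 and 56.0 CPM against 0.584 and 0.414 CPM. Etv1, an ETS factor, stood at 181 and 197 CPM against 8.03 and 22.0 CPM. All 5 members of the α transcription factor list with a mean of at least 20 CPM were at least 2-fold higher than in β cells in both libraries, with or without hormones in the totals, and the median member was 6.61 (WT) and 7.44 (HFD) higher on the log2 scale. Pou3f4, the remaining member, had 9 UMIs in WT and 2 in HFD.

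Irx1 was also low in γ cells, the cells whose main hormone is pancreatic polypeptide. It stood there at 3.80 and 2.32 CPM and was not found in δ cells. Of the 628 genes, 29 were also at least 2-fold higher than in δ and γ cells in both libraries, and 20 of these also than in endothelial cells. Among the leading ones were Irx1, Upk3a, Ttr, Wnk3 and Id1. Sums over 35 to 135 δ or γ cells per library set these ratios.

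Other leading genes were of several kinds. Higd1a, a mitochondrial protein induced by low oxygen, stood at 211 and 242 CPM in α against 0.474 and 0.322 CPM in β cells. Eef1a2, an elongation factor of neurons and muscle, stood at 69.3 and 72.3 CPM against 0.110 and 0.253 CPM. Kcnk3, the potassium channel TASK-1, stood at 74.9 and 107 CPM against 1.64 and 1.002 CPM, with 34.6 and 50.4 CPM in δ and 48.2 and 51.1 CPM in γ cells. Rcn3, Ndst4, Basp1, Ctxn2, Id1, Upk3a and Slc38a5 were also among the 15 genes highest in α over β cells. Of these, Id1, Upk3a and Slc38a5 were also at least 2-fold higher than in δ and γ cells in both libraries. Rcn3 stood at 68.4 and 52.1 CPM in α against 67.2 and 53.5 CPM in γ cells. Basp1 stood at 172 and 108 CPM in α against 94.5 and 114 CPM in δ cells.

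**Figure D3:**
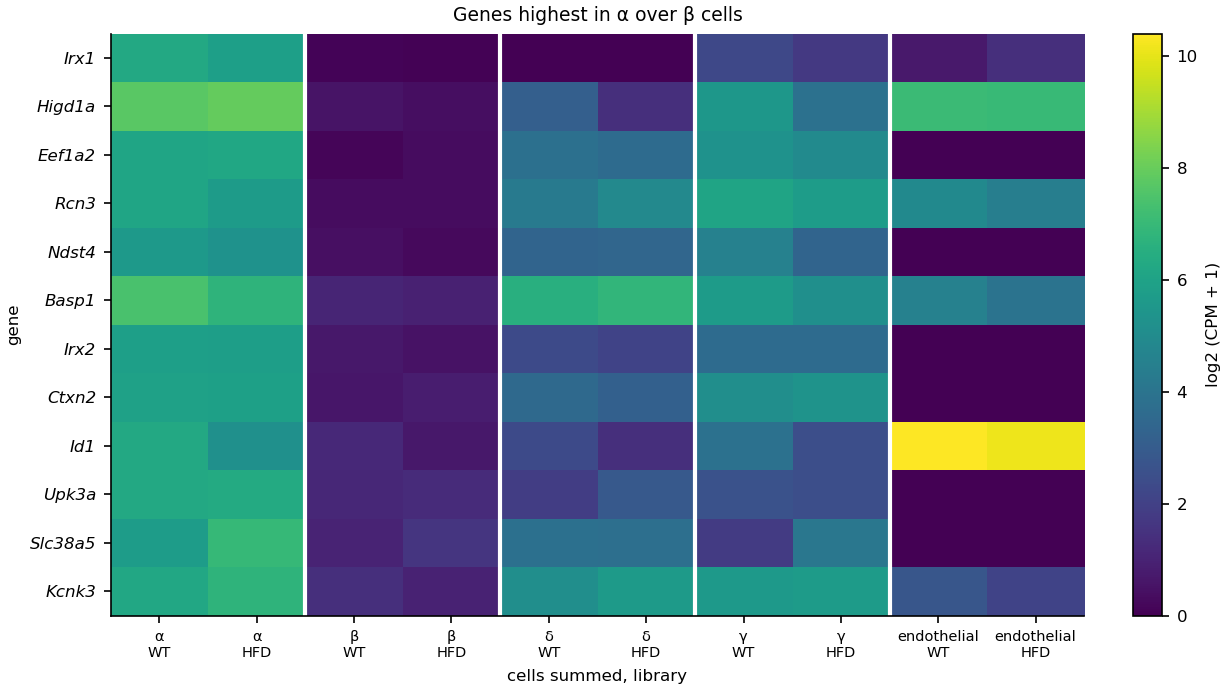
Colour gives log2(CPM + 1) of 12 of the 15 genes highest in α over β cells (rows), in summed α, β, δ, γ and endothelial cells of the WT and HFD library (columns). The 12 genes are lower in both β columns than in both α columns, and Id1 is highest in endothelial cells, at 1356 CPM (WT) and 1132 CPM (HFD).

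The genes lowest in α against β cells were Sytl4, Tmem215, Slc2a2, Cox6a2, G6pc2, Mafa, Car10, Prss53, Prlr and AC078895.1. Slc2a2, the glucose transporter GLUT2, stood at 29.96 and 14.0 CPM in α against 197 and 111 CPM in β cells. Mafa, a β cell transcription factor, stood at 35.6 and 32.6 CPM against 310 and 165 CPM. These levels came largely from the cells with much insulin. In the α cells under 10% insulin Slc2a2 had 2 and 1 UMIs and Mafa 3 and 2 UMIs. In the same cells the convertase Pcsk1 was lower than in all α cells, at 11.1 instead of 39.3 CPM in WT and 8.27 instead of 39.6 CPM in HFD, whereas β cells held 143 and 153 CPM. Pcsk2, the glucagon convertase, was higher, at 3439 instead of 2885 CPM in WT and 2640 instead of 2427 CPM in HFD.

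Most receptors of α cells were found at low levels. Sstr2, the somatostatin receptor of α cells, stood at 20.6 CPM (WT) and 24.1 CPM (HFD) against 0 and 0.0230 CPM in β cells. Avpr1b, a vasopressin receptor, stood at 14.98 and 9.33 CPM against 0.0158 and 0.0115 CPM. Ffar4, a receptor of long-chain fatty acids, stood at 31.8 and 30.3 CPM against 0.900 and 0.518 CPM. Gipr, the receptor of the incretin GIP, had 12 UMIs in WT and 6 in HFD α cells, of which 3 and 3 lay in cells under 10% insulin, and Glp1r, the GLP-1 receptor, had 1 and 0 UMIs, where 0 UMIs allows up to 2.33 CPM. Lepr, Cckar and Cckbr had no UMI in either library.

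HFD and WT α cells were then compared. A gene was called when its CPM differed at least 1.5-fold and the counting interval of the ratio excluded no difference. Of 1852 genes with a mean of at least 50 CPM, 35 (1.89%) were called higher in HFD and 119 (6.43%) lower, and the median tested gene differed by -0.08 on the log2 scale. The split of these calls depended on the scaling. With TMM scaling, which moved the median to 0.10, the numbers were 91 higher and 53 lower, so calls higher were 63.2% of all calls instead of 22.7%. Ratios below are therefore read against the median gene, and no gene was called in opposite directions in α and β cells.

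Immediate early genes were lower in HFD α cells. These genes, which cells switch on within minutes of a stimulus or of handling, had 16 of 16 members lower in HFD, each with its interval below 0. Of all genes with at least 10 UMIs 64.5% were lower and 9.14% had such an interval. In the list 12 of 13 tested members were called lower, against 6.43% of all tested genes. The median member differed by -1.50, and this median lay between -1.74 and -1.31 under all 13 alternatives. Single members were less steady. In cells under 10% insulin Jund differed by -0.09 (-0.20 to 0.03) and Ier3 by -1.84 (-4.42 to 0.29). In cells with 5000 to 30000 UMIs Jund differed by 0.006 (-0.11 to 0.13) and Ier3 by 0.23 (-2.89 to 3.82). The intervals of Klf2 and Zfp36 also included 0 there. Fos, the best known member, stood at 940 CPM (WT) and 140 CPM (HFD), a log2 ratio of -2.75 (-2.99 to -2.52). Egr1 differed by -2.15, Btg2 by -1.81, Junb by -1.61 and Jun by -1.24.

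The same list had a median of -1.0 in β cells and -1.21 in endothelial cells, so lower values were found in all 3 cell types. With each cell thinned to 2000 UMIs, 73.8% of WT α cells (61.5 to 84.0%) and 17.2% of HFD α cells (12.4 to 22.9%) held a Fos UMI, against 92.3 and 36.5% unthinned. Thinning left out 4 HFD α cells, and 9 WT and 43 HFD endothelial cells, that were shallower. Thinned endothelial cells, which also express Fos, gave 82.5 and 53.4%. Some members moved further in α than in β cells. Atf3, a stress-induced factor, differed by -1.17 in α and -0.33 in β cells, Fosb by -1.18 and -0.38, and Klf4 by -1.80 and -0.76. In endothelial cells Atf3 differed by -1.33 (-1.48 to -1.17) and Fosb by -0.93 (-1.10 to -0.76), so larger falls than in β cells were not confined to α cells. Handling of the islets before capture and the diet cannot be told apart here.

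Nfkbia, the inhibitor of NF-κB, stood at 376 CPM (WT) and 99.5 CPM (HFD), a log2 ratio of -1.92 (-2.22 to -1.63) against -0.76 in β cells and 0.68 in endothelial cells. Dnajb1, a heat-shock co-chaperone, stood at 220 and 80.8 CPM, a ratio of -1.44 against -0.11 in β cells and -1.41 in endothelial cells. The interferon regulatory factor Irf1 differed by -1.74 (-2.39 to -1.12), from 77.7 to 23.3 CPM. It belongs to a list of antigen presentation and interferon genes of which 10 of 10 members with at least 10 UMIs were lower in HFD, with a median of -0.52, 3 intervals below 0 and 2 of 4 tested members called lower. The same list had a median of -0.47 in β cells and -0.32 in endothelial cells. In α cells under 10% insulin Irf1 differed by -2.20 (-3.15 to -1.33). Tapbp, the other call, differed there by -0.37 (-0.95 to 0.20), an interval that included 0. Over all genes with at least 10 UMIs in α cells 64.5% were lower and 9.14% had an interval below 0, and 6.43% of tested genes were called lower.

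Transcription factors shared by islet endocrine cells were lower as well. All 10 members were lower in HFD α cells, 6 with intervals below 0, and the median was -0.76 against -0.32 in β cells and -0.17 over all 9453 genes with at least 10 UMIs. Of these 9453 genes 64.5% were lower and 9.14% had an interval below 0. Isl1 stood at 216 CPM (WT) and 91.7 CPM (HFD), a log2 ratio of -1.24 (-1.57 to -0.91) against -0.18 in β cells. Neurod1 stood at 108 and 59.1 CPM, a ratio of -0.87 (-1.30 to -0.44) against -0.40. Both were called, and both lay at or below -0.69 under all 11 alternatives run for them. Neither Foxa2, at 36.5 and 28.8 CPM, nor Nkx2-2, at 66.5 and 57.5 CPM, had an interval that excluded 0. The rest of the list depended on the cells chosen. In cells under 10% insulin only Isl1, Neurod1 and Pax6 had intervals below 0, and Insm1 differed by 0.05 (-0.61 to 0.74). In cells with 5000 to 30000 UMIs only Isl1, Neurod1 and Rfx6 had such intervals, and Insm1 differed by 0.42 (-0.24 to 1.11).

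Of 4 tested α factors 1 was called lower in HFD. Irx1, Irx2 and Etv1 had intervals that included 0, at -0.38, -0.03 and 0.13. The list median of -0.31 moved to -0.93 among cells with 5000 to 30000 UMIs, where Irx1 differed by -1.04 (-1.66 to -0.44). In cells under 10% insulin the list median was -0.34 and Irx1 differed by -0.55 (-1.07 to -0.03).

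Slc38a5 went the other way. It stood at 53.4 CPM (WT) and 123 CPM (HFD) in α cells, a log2 ratio of 1.202 (0.76 to 1.67). In WT its 57 UMIs lay in 22 of 65 α cells and the cell with the most held 22.8% of them, and in HFD its 158 UMIs lay in 69 of 219 α cells. Thinned to 2000 UMIs, 7.69% of WT α cells (2.54 to 17.05%) and 16.7% of HFD α cells (12.01 to 22.4%) held a UMI, intervals that overlap, while unthinned shares were 33.8 and 31.5%. No thinned endothelial cell did. The ratio lay between 0.68 and 1.38 under 11 alternatives, lowest among cells with 5000 to 30000 UMIs. In γ cells Slc38a5 stood at 2.54 and 16.3 CPM, and in δ cells at 13.3 and 13.0 CPM.

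The list of amino acid transporters had a median of -0.50, with 7 of 9 members lower, 1 of 7 tested members called higher and 2 called lower. Over all 9453 genes with at least 10 UMIs 64.5% were lower in HFD, so the share of lower members was near that of all genes. Intervals below 0 were more frequent in the list, at 5 of 9 members against 9.14% of all these genes. Over all tested genes 6.43% were called lower. Slc6a6, the taurine transporter, stood at 135 CPM (WT) and 63.7 CPM (HFD) (-1.08, -1.49 to -0.68). Slc38a2, a transporter of neutral amino acids, stood at 70.2 and 44.3 CPM (-0.66, -1.19 to -0.15), whereas β cells held 40.8 and 56.5 CPM. In α cells under 10% insulin Slc38a2 differed by -0.55 (-1.19 to 0.09), an interval that included 0. Slc7a2, a transporter of arginine and lysine, stood at 139 and 97.9 CPM, a ratio of -0.50 (-0.86 to -0.15) that was not past 1.5-fold.

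Among secreted products Ttr was called higher, with a log2 ratio of 0.73 (0.70 to 0.75). This value moved with the choice of cells, to 0.56 in α cells under 10% insulin and to 0.24 (0.21 to 0.27) in cells with 5000 to 30000 UMIs, and it was 0.996 in β cells and 0.84 in endothelial cells, where Ttr stood at 38.2 and 68.4 CPM. Gpx3 differed by 0.36 (0.24 to 0.47), by 0.25 (0.12 to 0.39) in cells under 10% insulin and by 0.04 (-0.10 to 0.18) in cells with 5000 to 30000 UMIs. Tac1, which encodes substance P, had 0 UMIs in WT and 20 in HFD, and all 20 lay in 1 cell. Gcg itself, which chose the cells, took 22.5% of summed α cell UMIs in WT and 26.0% in HFD, and 29.8 and 30.7% in α cells under 10% insulin.

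Processing and granule genes differed little. Pcsk2 stood at 2885 CPM (WT) and 2427 CPM (HFD), a log2 ratio of -0.25, and at -0.61 (-0.70 to -0.52) in cells of 5000 to 30000 UMIs. Chga, which encodes chromogranin A, stood at 5327 and 4552 CPM (-0.23). None of 5 tested processing genes and none of 7 tested granule genes was called. Both list medians, 0.04 and 0.09, changed sign among the alternatives. Genes of exocytosis had a median of -0.48, against -0.13 in β cells. They were lower in 12 of 14 cases and 8 intervals lay below 0, against 64.5 and 9.14% of all genes with at least 10 UMIs. Of 7 tested members 1 was called lower.

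Genes of protein folding in the endoplasmic reticulum (ER) were slightly higher in HFD α cells, with 14 of 22 members higher, 8 intervals above 0, none below 0, and a median of 0.12 against 0.37 in β cells. Of all genes with at least 10 UMIs 35.5% were higher and 2.89% had an interval above 0. Hspa5, the chaperone BiP, stood at 532 CPM (WT) and 696 CPM (HFD) (0.39, 0.23 to 0.54). Herpud1, of ER-associated degradation, stood at 201 and 298 CPM (0.56, 0.32 to 0.81), against 1.23 in β cells. In the cells under 10% insulin Herpud1 differed by 0.25 (-0.07 to 0.58), and Fkbp11, the list's 1 call, by 0.30 (-0.56 to 1.21) instead of 0.70. In cells with 5000 to 30000 UMIs they differed by 0.94 (0.62 to 1.26) and 1.33 (0.66 to 2.04), a range in which insulin was also higher in HFD, as given above, and its part in these values was not tested. Measured against β cells the list had 0 of 21 members 2-fold higher and 3 lower, and 13 lower without hormones in the totals.

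Ribosomal protein genes were higher in 77 of 82 cases and had 72 intervals above 0, against 35.5 and 2.89% of all genes with at least 10 UMIs. The list held 1 call, Rps28. The list median was 0.29 in α cells, 0.30 in β cells and 0.03 in endothelial cells, and it came to 0.02 among α cells with 5000 to 30000 UMIs. Genes of oxidative phosphorylation had a median of 0.06 with 0 of 15 called. Of sterol and fatty acid synthesis only Sqle, squalene epoxidase, was called, from 44.9 to 68.4 CPM (0.61, 0.08 to 1.14), and the list median was -0.14. Sqle differed by 0.83 (0.17 to 1.54) in cells under 10% insulin and by 0.48 (-0.18 to 1.16) in cells with 5000 to 30000 UMIs. Of the redox list Txnip, a glucose-induced inhibitor of thioredoxin, was called lower, from 136 to 61.4 CPM (-1.15, -1.56 to -0.74), and it differed by -0.88 (-1.45 to -0.32) in cells under 10% insulin and by -0.35 (-0.89 to 0.19) in cells with 5000 to 30000 UMIs. Receptors had 0 calls because no member reached 50 CPM, and of channels Cacna2d1, a calcium channel subunit, was called lower, from 84.3 to 46.6 CPM (-0.85, -1.35 to -0.37). In cells under 10% insulin Cacna2d1 differed by -0.41 (-1.01 to 0.20) and was no longer past the limits. Of glucose use 0 of 4 tested members were called, and of lipid oxidation and storage 0 of 1.

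**Figure D4:**
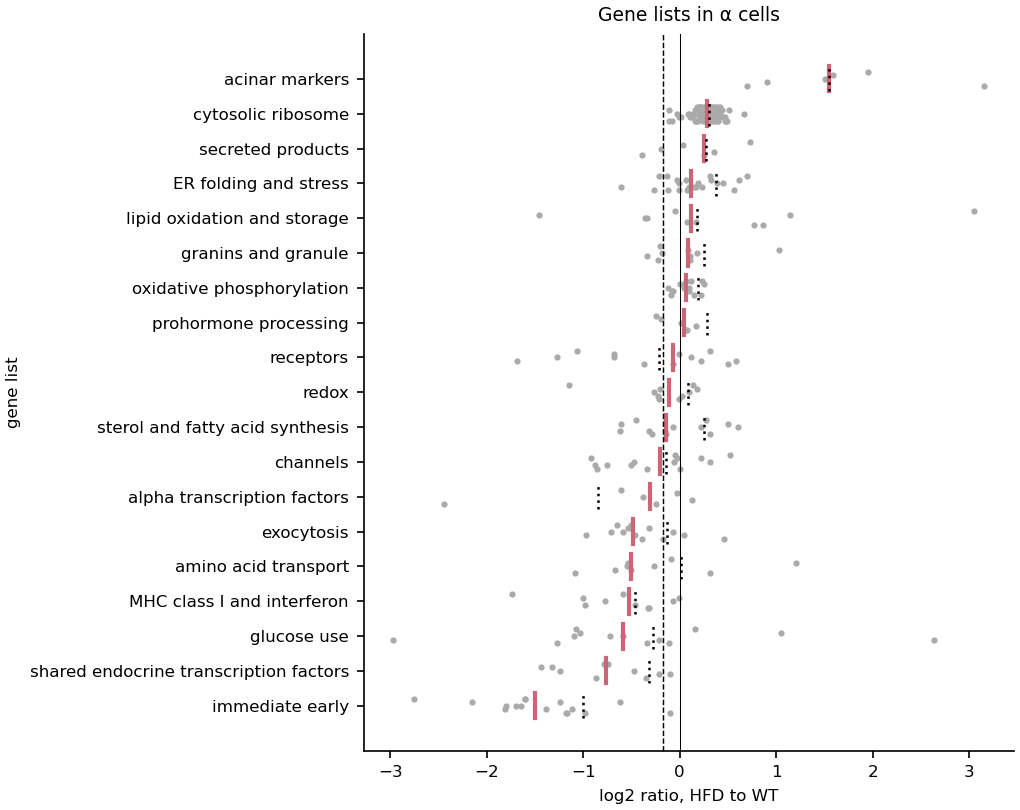
Grey points are the log2 ratios of HFD to WT (x axis) of the members with at least 10 UMIs in α cells, by gene list (y axis); members with no UMI in 1 of the libraries are not drawn. Red bars are list medians in α cells, dotted bars the medians of the same lists in β cells, and the dashed line the median over every gene that reached 10 UMIs, -0.17; immediate early genes lie lowest, at -1.50, and acinar markers highest, at 1.55.

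Genes of another cell type were among those furthest above WT in HFD α cells. Try5, Try4, Prss2 and Ctrb1, digestive proteases of pancreatic acinar cells, had log2 ratios of 3.16, 2.36, 1.95 and 1.59. All 6 acinar markers were called higher, and their summed level went from 327 to 1062 CPM in α cells. The same 4 genes differed by 3.27, 2.30, 1.79 and 1.67 in β cells and by 2.76, 2.03, 1.43 and 1.30 in endothelial cells. All 3 cell types thus held more of these transcripts in HFD.

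Epithelial genes followed. Cldn4, which encodes claudin-4 of tight junctions, stood at 75.8 CPM (WT) and 151 CPM (HFD), a log2 ratio of 0.99 (0.61 to 1.38) against -0.24 (-0.33 to -0.14) in β cells, of 0.88 (0.44 to 1.33) in cells under 10% insulin and of 0.48 (0.02 to 0.95) in cells with 5000 to 30000 UMIs. The keratins Krt8 and Krt18 stood at 716 and 1149 CPM and at 422 and 661 CPM, ratios of 0.68 and 0.65 against 0.40 and 0.19 in β cells. In cells under 10% insulin they differed by 0.68 and 0.62, and in cells with 5000 to 30000 UMIs by 0.52 and 0.55. Of the duct markers Krt19 had no UMI in α cells, Sox9 had 1 in each library, Krt7 stood at 113 and 103 CPM and Spp1 at 48.7 and 77.7 CPM. Their part in these ratios was not tested.

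Dapl1, Cct2 and Mrps12 completed the 12 genes highest in HFD. Dapl1 stood at 49.6 CPM (WT) and 160 CPM (HFD) in α cells (1.69, 1.25 to 2.15) and at 89.7 and 352 CPM in β cells, and the β profile scaled to the insulin UMIs of α cells would come to 33.3 and 33.0% of it. Among the 12 lowest, C2cd4b, a gene near a locus of diabetes risk, differed by -1.25 in α and -1.60 in β cells.

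**Figure D5:**
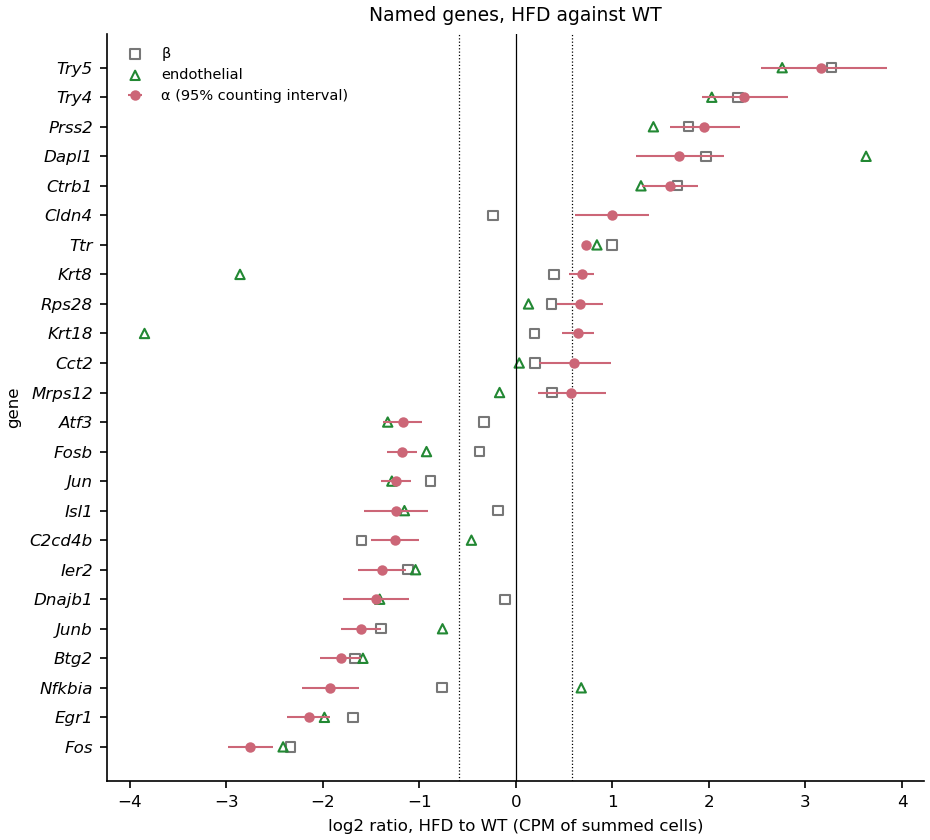
Points are log2 ratios of HFD to WT (x axis) in summed α cells with 95% counting intervals, for the 12 genes highest and the 12 lowest in HFD (y axis); squares and triangles give β and endothelial cells, and dotted lines mark 1.5-fold. Protease genes and most immediate early genes moved alike in the 3 cell types, whereas Cldn4, Isl1 and Dnajb1 lie apart from β cells and Dnajb1 lies at its endothelial value; Cldn4 had no endothelial UMI in HFD and has no triangle.

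Markers of further cell types were low in α cells. Of 5 endothelial markers the summed level was 6.55 CPM in WT and 3.89 CPM in HFD, 4 of 5 macrophage markers had no UMI in either library, and lymphocyte markers summed to 5.62 and 6.99 CPM. Fibroblast markers summed to 152 and 5.44 CPM. All 64 WT UMIs of Dcn came from 1 cell, as did 46 of 48 of Col1a2. Of 10 cycling genes 6 had no UMI in either library. At least 2 cycling genes were found in 1 of 65 WT α cells and in 0 of 219 HFD α cells. By the limit of 3 cells this allows a share of up to 1.37% of cells with such UMIs, and at a median of 4701 UMIs it sets no limit on the share of cycling cells.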

How the data were processed

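Islets of 4 pooled mice per group were dispersed, dead cells were depleted, and 3-prime v3 libraries of 10x Genomics were made. The deposited values are raw UMI counts per gene and barcode, which the authors made by running Cell Ranger (v3.0.2) on an mm10 index. Later filters of the study, a UMI maximum among them, had not been applied. Here the counts were used with no UMI maximum, and doublets were not removed: with its own threshold, Scrublet (in scanpy v1.11.5) marked 1 barcode of WT and 0 of HFD and had not worked, so leaving out the highest scores, 3.11% of WT and 7.16% of HFD barcodes, was run as an alternative. Gene positions are those of GENCODE M21 and promoters those of RefSeq.

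UMIs were summed per cell type and library and scaled to CPM (python v3.11.15, scipy v1.17.1). Depth was 73843674 UMIs in WT and 94375138 UMIs in HFD over all deposited barcodes. β cells had at least 40% insulin and under 2% of each other hormone, and δ and γ cells were chosen like α cells by Sst and by Ppy (against Gcg and Sst). Endothelial cells held at least 3 UMIs of Pecam1, Cdh5, Kdr and Plvap together, no other hormone at 2% and under 40% insulin. Ratios carry exact conditional intervals, sums exact Poisson and shares exact Clopper-Pearson intervals. For a gene with 0 UMIs the limit is the level of 3 UMIs. The scripts were tested on simulated data. List medians were taken over members with 10 or more UMIs in the libraries together.

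Genes were named by rule: the 15 highest and 10 lowest in α over β cells at a mean of at least 20 CPM, by the smaller log2 ratio of the libraries; and, for HFD against WT, the 12 highest and 12 lowest with a mean of at least 100 CPM, an interval that excluded no difference, no cell above 25% of the UMIs, and at most 50% from the insulin-scaled β profile, which left out Iapp. List members could also be named. Some genes that the rule names are not reported here. The cells, lists and rules were chosen with earlier results of these data known, so they lend no independent support. TMM factors came from edgeR (v4.0.16). Alternatives changed the cells (UMI and mitochondrial limits, Gcg and insulin limits, doublet scores), the scaling, the weighting of cells, the subtraction of the β profile and the minimum of UMIs.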

Additional observations from a re-analysis of the deposited data

Results flagged for a closer look

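Cldn4 and Slc38a2 differed in opposite directions in α and β cells, each with both counting intervals on their own side of 0. Cldn4 had a log2 ratio of HFD to WT of 0.99 (0.61 to 1.38) in α cells and -0.24 (-0.33 to -0.14) in β cells. Slc38a2 had -0.66 (-1.19 to -0.15) in α cells and 0.47 (0.40 to 0.54) in β cells. In α cells under 10% insulin Cldn4 had 0.88 (0.44 to 1.33), and Slc38a2 had -0.55 (-1.19 to 0.09), an interval that included 0. With 1 library per group the difference between the cell types was not tested.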

How the results depend on the processing

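The α cell share was 5.74% in WT and 4.22% in HFD with at most 15000 UMIs, and 4.33 and 1.57% with 5000 to 30000 UMIs. Genes called higher in HFD numbered 91 with TMM, and genes called lower 53 with TMM, 198 with at most 15000 UMIs, 202 with the β profile subtracted and 233 with 5000 to 30000 UMIs. The counts of α over β cells became 112 higher and 237 lower without hormone and mitochondrial genes in the totals, and the lower count 28 with at least 50 UMIs and 80 with at most 15000 UMIs.

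With at most 15000 UMIs, list medians came to 0.91 (acinar), -0.94 (α transcription factors), 1.82 (β markers), 0.15 (ribosome), 0.92 (duct), 0.18 (glucose use) and -0.19 (prohormone processing). With 5000 to 30000 UMIs they came to 0.92 (acinar), -0.93 (α transcription factors), 1.16 (β markers), 0.020 (ribosome) and -0.032 (δ markers). With insulin under 10% they came to 0.34 (β markers, -0.45 otherwise) and -0.18 (prohormone processing). With TMM they came to 0.47 (ribosome), 0.27 (granule) and 0.22 (prohormone processing). With at least 1 UMI the δ markers came to -1.31. The causes were not tested.

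All 40 named genes kept their direction under the 11 alternatives run for each. Of 746 values of lists and named genes under the alternatives, 682 stayed within the counting interval of the reported value (for a list, the median of its members' bounds) and 64 did not. No named gene or list past 1.5-fold changed sign. Of 24 lists with a median, 11 changed sign under at least 1 alternative: β, duct and lymphocyte markers, glucose use (-0.58 as reported), granules, lipid oxidation, oxidative phosphorylation, prohormone processing (0.04 as reported), receptors, redox and sterol synthesis. The range of 5000 to 30000 UMIs left HFD cells shallower and richer in insulin. TMM moved the median of the tested genes from -0.08 to 0.10. No paired analysis was possible because each group is 1 library, and for the same reason no replicate could be left out. Median depth was 11823 UMIs in WT and 4701 UMIs in HFD α cells, and genes under 50 CPM were not called.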

Other observations

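Further genes are given as values, and were chosen after their values were seen. Pdk4, a kinase that restrains pyruvate oxidation, had 25 UMIs in WT α cells and 11 in HFD α cells and no UMI in β cells of either library. Cd36, a fatty acid translocase, had 1 and 10 UMIs, a log2 ratio of 3.05 (0.24 to 8.49). In cells under 10% insulin Cd36 had 1 and 8 UMIs, with an interval that included 0 (-0.52 to 7.85). Slc2a1, the glucose transporter GLUT1, had 2 and 15 UMIs, a ratio of 2.64 (0.53 to 5.81). For Slc2a1 the interval was 0.18 to 5.46 in cells under 10% insulin. In cells with 5000 to 30000 UMIs it had 2 and 6 UMIs and an interval that included 0 (-1.25 to 4.58). Oxtr, the oxytocin receptor, had 31.8 (WT) and 45.1 CPM (HFD) in α cells against 2.98 and 7.73 CPM in β cells, and its ratio of 0.50 had an interval that included 0. Rbp4, a retinol carrier that is also a δ marker, stood at 1640 and 1436 CPM in α against 38.0 and 25.9 CPM in β cells.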
